A study of Mus musculus with 31 samples.

Results

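MHC class II molecules present peptides to CD4 T cells. An alpha and a beta chain form the molecule, the invariant chain (Cd74) escorts it to endosomes, and the H2-DM chaperone helps peptides to load there. In the mouse the classical chains are those of I-A (H2-Aa and H2-Ab1) and I-E, whose beta chain is H2-Eb1. Transcription is switched on by Ciita, a coactivator that binds no DNA itself and is recruited by factors sitting on a conserved promoter module. In thymus the carriers are epithelium, dendritic cells, macrophages and B cells, whereas most mouse thymocytes and T cells carry little class II. Mice of the C57BL/6 background are known to make no I-E on the cell surface, because the alpha chain gene H2-Ea is not expressed.

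The 6 genes H2-Aa, H2-Ab1, H2-Eb1, H2-DMa, Cd74 and Ciita were taken by name, out of 18193 genes with a probe set of their own, and all 6 were among the 14016 genes tested. They had 14 probe sets, all above the filter on low signal: 4 for H2-Aa, 3 each for H2-Ab1 and Ciita, 2 for H2-DMa and 1 each for H2-Eb1 and Cd74. The H2 genes lie on mouse chromosome 17, which also holds Stk38, the gene of the kinase NDR1 that the study disrupted. Ciita lies on chromosome 16 and Cd74 on chromosome 18. H2-DMb1, a beta chain of the DM chaperone, shares its probe sets with H2-DMb2 and was not counted.

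RNA was measured on 31 expression arrays of C57BL/6 mice. Tumors arose in mice given the alkylating mutagen ENU (N-ethyl-N-nitrosourea, 100 mg/kg) and were taken when they developed or 9 months after treatment. The tumor arrays numbered 7 labelled homozygous mutant for NDR1 (KO, 1 of them male), 7 labelled heterozygous (HT, 1 male) and 5 labelled wild type (WT, all female). The untreated thymi numbered 4 per genotype (KO, HT and WT), of which 2 were male and 2 female. The titles speak of thymocytes and tumor cells and the tissue field of thymus. The age, the processing batch and the disrupted part of the gene are not given in the labels, nor do they say that arrays came from separate animals, so p-values measure the spread between these samples. Values are log2(normalized intensity + 1) of a gene's probe set of highest mean unless a probe set is named, and "called" means an adjusted p under 0.05 over all 14016 genes in limma. Precision is limited by the number of arrays in each group.

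The label check comes first. Stk38 averaged 10.92 ± 0.33 in KO thymi, 11.44 ± 0.11 in HT thymi and 11.86 ± 0.15 in WT thymi (SD, n = 4 each). In tumors it spanned 8.73 to 13.08 in the 7 labelled KO, 10.71 to 12.77 in the 7 labelled HT and 11.38 to 13.04 in the 5 labelled WT. Thus 4 tumors labelled KO (03, 04, 06 and 07) had Stk38 signals of 12.84, 12.77, 13.08 and 11.47, at or above the lowest WT tumor. Whether this probe set lies in the disrupted part is not known, so KO, HT and WT tumor below mean tumors so labelled. RNA integrity was read from control transcripts, as the log2 signal of their 3' over their 5' probe sets. This 3' to 5' ratio was 0.26 to 0.50 in thymi and 0.18 to 4.87 in tumors, of which 15 of 19 lay above the highest thymus. CD4 CD8 double-positive thymocyte markers averaged 13.25 to 13.46 over thymi. They were lower in all 19 tumors, at 8.32 to 12.12.

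Before the values come the promoter letters of some class II genes. RefSeq promoter windows (GRCm38.p6, 250 bases before the start) were given for 3 of the 6 genes, H2-Aa, H2-Eb1 and H2-DMa, and for 5 further class II genes. The windows were searched on both strands for GCAAC, the core letters of the X box that RFX factors bind, and for GATTGG, the core of the Y box that NF-Y binds, with the first letters 28 to 34 bases apart. The spacing was chosen after looking at these windows. The pair stood in the windows of H2-Aa, H2-Eb1, H2-Eb2, H2-Oa and H2-Ob, on the strand of the gene, and in 42 of all 32851 windows (0.128%). GCAAC alone stood in 29.9% of windows and GATTGG alone in 14.6%. The longer CTGATTGG, which contains GATTGG, stood in 3.83%. The 150 bases before the start of 3 chain genes and of H2-DMa are printed 5′ to 3′ on the strand of the gene, with GCAAC and CTGATTGG, whose last 6 letters are the searched GATTGG, in capitals:
H2-Aa (chr17:34287824-34287973, minus strand): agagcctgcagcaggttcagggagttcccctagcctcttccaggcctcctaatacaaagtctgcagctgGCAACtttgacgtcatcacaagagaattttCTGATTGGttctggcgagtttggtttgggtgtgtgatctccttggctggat
H2-Eb1 (chr17:34305717-34305866, plus strand): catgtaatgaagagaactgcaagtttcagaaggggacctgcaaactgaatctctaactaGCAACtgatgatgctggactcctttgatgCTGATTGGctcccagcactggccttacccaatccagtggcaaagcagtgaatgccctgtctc
H2-Oa (chr17:34092229-34092378, plus strand): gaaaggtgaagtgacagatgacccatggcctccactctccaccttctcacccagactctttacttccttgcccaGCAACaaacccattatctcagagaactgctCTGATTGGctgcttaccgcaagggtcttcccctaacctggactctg
H2-DMa (chr17:34122682-34122831, plus strand): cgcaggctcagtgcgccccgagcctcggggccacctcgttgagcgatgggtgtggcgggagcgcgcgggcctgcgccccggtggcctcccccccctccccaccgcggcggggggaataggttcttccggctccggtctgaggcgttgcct
Counted from the start of the gene, GCAAC and GATTGG began at -81 and -49 in H2-Aa, at -91 and -60 in H2-Eb1 and at -76 and -44 in H2-Oa. Neither of the 2 windows listed for H2-DMa held the pair, nor did the windows of H2-DMb1 and H2-DMb2. The calls between male and female thymi given below were mixed, both with and without the pair. Of the genes with it, H2-Aa, H2-Eb1 and H2-Ob were called lower in males and H2-Oa and H2-Eb2 were not called. H2-Eb2 had a low signal in thymi, at 4.26 to 5.02. Of the genes without it, H2-DMb2 was called lower and H2-DMa was not called. The search took exact letters only, so variants of the boxes were not counted. A link between the pair and the difference was not tested. A match of letters is a description and shows no binding.

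Male against female thymi gave the difference that passed the test. H2-Ab1, Cd74, H2-Eb1 and H2-Aa were lower in the male thymi by about 1 log2 unit each. For these 4 genes every one of the 6 male thymi lay below every one of the 6 female thymi. How many of all genes separate in this way was not counted, while 25.9% of all genes were called between male and female thymi. The counts of separate genes are thus not shown to be particular to class II or to any cell type. The same held for 5 of 9 dendritic cell markers, 5 of 9 thymic epithelium markers and 4 of 8 endosomal proteases and reductases. It held for 0 of 9 B cell markers and 0 of 5 further class II chains. H2-DMa and Ciita, by its main probe set, did not pass. H2-Ab1, the I-A beta chain, had its lowest, median and highest value at 8.99, 9.47 and 9.78 in male thymi, against 10.53, 10.77 and 11.28 in female thymi. The values did not overlap, and H2-Ab1 fell by 1.35 in males (SE 0.14, adjusted p = 0.000116).

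Cd74, the invariant chain, stood at 10.37, 10.79 and 11.35 (lowest, median, highest) in male thymi and at 11.66, 11.93 and 12.36 in female thymi. The male values all lay below the female ones, and Cd74 fell by 1.12 in males (SE 0.16, adjusted p = 0.000817). H2-Eb1 stood at 9.20, 9.59 and 10.13 in male thymi and at 10.54, 10.60 and 11.19 in female thymi, a fall by 1.10 in males (SE 0.16, adjusted p = 0.00107). H2-Aa, the I-A alpha chain, stood at 9.91, 10.30 and 10.89 in male thymi and at 11.06, 11.22 and 11.76 in female thymi, a fall by 0.96 in males (SE 0.16, adjusted p = 0.00208). For both genes too the ranges of males and females were separate.

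H2-DMa, the alpha chain of the peptide-loading chaperone, behaved differently from the chains it serves. It stood at 7.86, 8.004 and 8.10 in male thymi and at 7.71, 8.18 and 8.62 in female thymi, so the male values lay within the female range. Its difference was -0.16 (SE 0.12, adjusted p = 0.360 in limma), and its other probe set, 1459872_x_at, gave -0.13. That probe set stood at 3.14 to 3.58 in thymi, below the filter of 3.61, which its mean passed through a few tumors. It therefore says little about a difference between thymi. Ciita was close to the lower limit of measurement in thymus, at 3.42, 3.70 and 4.07 in male thymi and at 3.74, 3.93 and 4.14 in female thymi, a difference of -0.20 (SE 0.12, adjusted p = 0.260). The other Ciita probe sets, 1421210_at and 1447075_at, fell by 0.60 and 0.64 in males and were called when each probe set was fitted by itself. The averaged Ciita probe sets were called too, at -0.48 (adjusted p = 0.000874), so the result for Ciita depends on the probe set.

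In all, 4 of 6 genes were called lower and 0 higher in male thymi, where 25.9% of all genes were called (15.2% higher and 10.7% lower). The median difference was -1.03 over the 6 genes and 0.04 over all genes tested. The difference was seen within each genotype, which has 2 males and 2 females. H2-Ab1 differed by -1.40 to -1.29, Cd74 by -1.26 to -1.01, H2-Eb1 by -1.305 to -0.89 and H2-Aa by -1.26 to -0.70 between genotypes. The males lay below the females in all 3 genotypes, which follows from the separate ranges given above. Leaving out each thymus in turn, 4 of 6 genes were called each time. In a separate fit of 26217 single probe sets, all 8 probe sets of the 3 chain genes, H2-Aa, H2-Ab1 and H2-Eb1, were called lower. The share of all probe sets called in that fit is not given here. Probe sets of 1 gene read the same gene and do not count as further support.

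**Figure D1:**
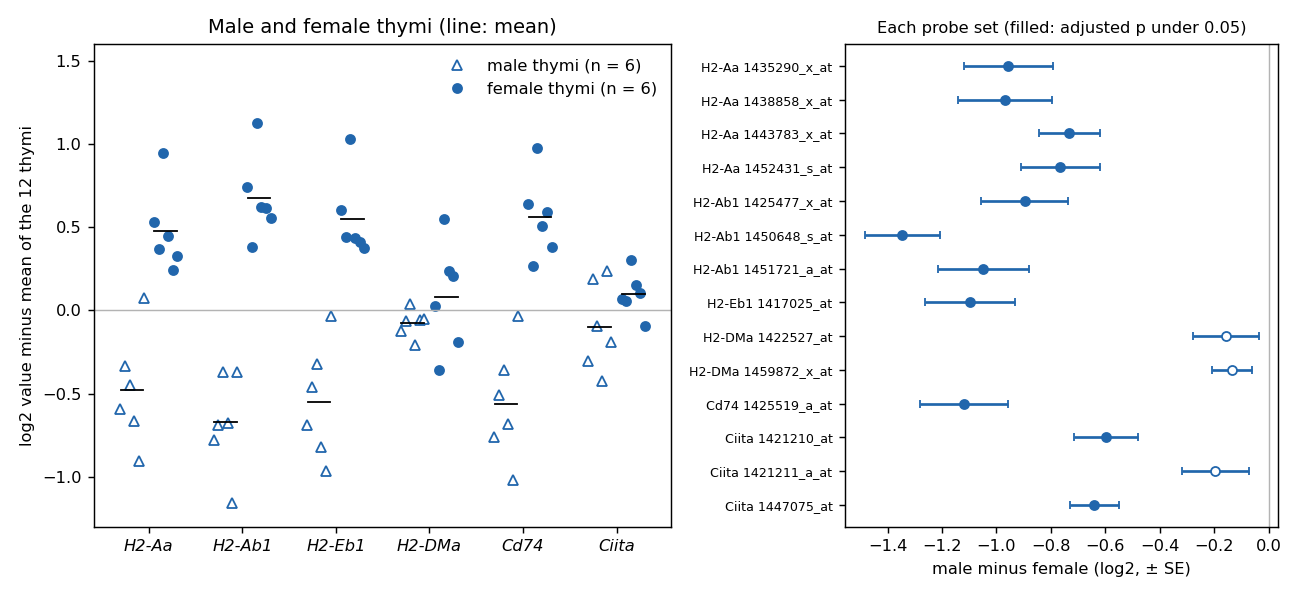
Left, log2 values of each gene in 6 male (triangles) and 6 female (dots) thymi, centred on the mean of the 12 thymi, with the group means as lines. Right, the male minus female difference of each of the 14 probe sets with its SE, filled where the adjusted p was under 0.05: all probe sets of H2-Aa, H2-Ab1, H2-Eb1 and Cd74 lie well below 0, and those of H2-DMa at -0.16 and -0.13. The H2-DMa probe set at -0.13 was below the low-signal filter in every thymus.

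Markers of several cell types, among them carriers of class II, were also lower in male thymi. The counts called stand against 15.2% of all genes called higher and 10.7% called lower. Thymic epithelium markers fell in 8 of 9 measured genes (median -1.92), macrophage markers in 10 of 11 (median -0.92) and dendritic cell markers in 6 of 9 (median -0.53) in male thymi, against 2 of 9 B cell markers (median -0.29). The mean level of the 9 epithelial markers ranged from 5.35 to 5.77 in male thymi and from 6.70 to 8.14 in female thymi, and the defining gene Foxn1 was near the lower limit of measurement in both. The 11 macrophage markers averaged 5.43 to 6.28 in male thymi and 6.76 to 7.25 in female thymi. Fibroblast markers, of cells not known as class II carriers, fell in 3 of 7 (median -0.16; Dcn by 2.19, Col3a1 by 1.57 and Sparc by 0.80). Of 8 double-positive thymocyte markers 3 rose (Rag2 by 0.28, Dntt by 0.30 and Themis by 0.21) and 1 fell (Cd3e by 0.25), with a median of -0.05. These fibroblast and thymocyte genes were named after their values were seen. Fewer cells of a type and less RNA per cell cannot be told apart in such samples. The part these cells have in the class II difference was not tested, and sex cannot be told apart from age, dissection or any other difference that the labels leave out.

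Some genes acting around class II were also lower in male thymi, where 15.2% of all genes were called higher and 10.7% lower. Prss16, a serine protease of the thymic cortex, fell by 4.995 and Ctsh, an endosomal cathepsin, by 1.33, and 5 of 8 endosomal proteases and reductases fell in all. Cd86, a costimulatory ligand, fell by 1.56 and Cd40, a receptor for T cell help, by 0.74, and 3 of 5 turnover and costimulation genes fell. These 4 genes were picked after their values were seen. Of the other class II chains, H2-DMb2 fell by 0.85 (adjusted p = 0.0105) and H2-Ob, which restrains the DM chaperone, by 0.28 (adjusted p = 0.0120), while its partner H2-Oa was at 0.17 (adjusted p = 0.301). Among 7 promoter factors, the RFX subunits Rfxap (0.40) and Rfxank (0.32) rose and 0 fell. Of 13 class I presentation genes, 7 fell and 1 rose. Rises of 2 of 7 and 1 of 13 genes are too few to set apart from the 15.2% of all genes.

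Between tumors and thymi no class II gene was called, and the tumors were spread more widely than the thymi. None of the 6 genes was called (0 of 6, against 24.2% of all genes; 0 at an unadjusted p under 0.05, limma). The values ran from -0.50 for H2-DMa (SE 0.72) to 1.02 for Ciita (SE 0.63, adjusted p = 0.246), with a median of -0.09 over the 6 genes and of 0.05 over all genes. The tumors ran both above and below the thymi. H2-Ab1 averaged 10.66 ± 1.87 over 19 tumors and 10.15 ± 0.75 over 12 thymi (SD), and 5 tumors lay above the highest thymus and 4 below the lowest. H2-Eb1 and H2-Aa showed the same kind of spread, with 5 and 6 tumors above and 5 and 4 below.

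Measured against the lowest of all 12 thymi, H2-DMa was the gene most often low. It averaged 7.96 ± 2.27 over tumors and 8.07 ± 0.24 over thymi, and 12 of 19 tumors lay below the lowest thymus, 4 above the highest and 3 between. Cd74 averaged 11.61 ± 1.78 over tumors and 11.39 ± 0.65 over thymi, with 4 tumors above and 6 below. For H2-Aa, H2-Ab1, H2-Eb1 and Cd74 the lowest thymus was male, so these counts depend on the sex of the thymi. Among females, the tumor median lay below the lowest thymus for H2-DMa (7.36 against 7.71) and Cd74 (11.29 against 11.66). The same held for H2-Ab1 (10.38 against 10.53) and H2-Eb1 (10.30 against 10.54), but not for H2-Aa (11.38 against 11.06). On its main probe set Ciita went the other way. There 15 of 19 tumors lay above the highest thymus of 4.14, and Ciita averaged 5.27 ± 2.08 over tumors and 3.84 ± 0.22 over thymi. Of these 15 tumors, 11 stood at 5.34 or less. On probe sets 1421210_at and 1447075_at most tumors did not exceed the highest thymus (4.36 and 4.13), so the count depends on the probe set.

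**Figure D2:**
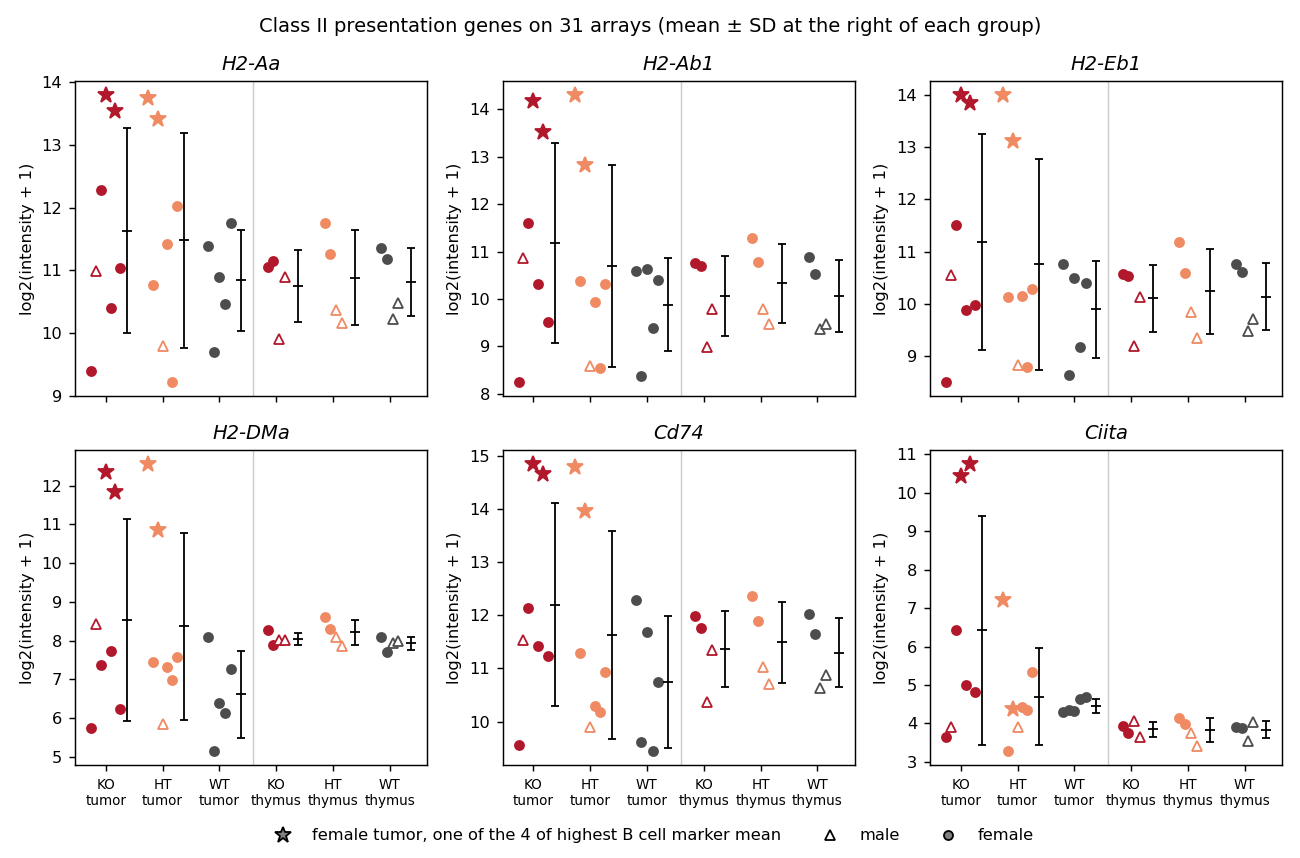
Each dot, triangle or star is 1 array, with the log2 value of 1 gene on the vertical axis, and bars give the mean ± SD of each group (n = 7, 7, 5, 4, 4 and 4, left to right). Stars mark the 4 tumors of highest B cell marker mean, which hold the top 4 places for each gene but Ciita.

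The upper end was made by 4 tumors. KO tumors 04 and 06 and HT tumors 01 and 03 had the highest value of H2-Aa, H2-Ab1, H2-Eb1, H2-DMa and Cd74 among the 19. H2-Ab1 was 14.17 and 13.52 in KO tumors 04 and 06 and 14.29 and 12.82 in HT tumors 01 and 03, against 11.59 in KO tumor 03, the next. Cd74 was 14.84, 14.65, 14.80 and 13.97 in the same order, against 12.28 in WT tumor 01, the next. H2-DMa was 12.35, 11.84, 12.55 and 10.87, against 8.42 in KO tumor 02. For these 3 genes a gap of over 1 log2 unit set the 4 tumors apart from the other 15.

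Ciita did not follow the same order on every probe set. Its main probe set was 10.43 and 10.74 in KO tumors 04 and 06, 7.22 in HT tumor 01 and 4.38 in HT tumor 03, below the 6.43 of KO tumor 03. On probe set 1421210_at the 4 tumors had 9.05, 9.21, 9.00 and 6.62 and KO tumor 03 had 4.36. On 1447075_at they had 9.20, 9.94, 8.24 and 4.80 and KO tumor 03 had 3.93. All 4 tumors were above the highest thymus on all 3 Ciita probe sets, HT tumor 03 by the least on the main one, where the highest thymus was at 4.14.

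The same 4 tumors were those of highest B cell marker mean, and for that mean they were taken as a set. The mean over 9 B cell markers was 12.41 and 12.76 in KO tumors 04 and 06 and 12.42 and 10.91 in HT tumors 01 and 03, and 9.80 in KO tumor 03. In the 12 thymi it was 5.02 to 6.25. All 9 markers were above the highest thymus in each of the 4 tumors, and 8 of 9 were above every other tumor. The lead of the 4 over the other tumors in these markers follows from the choice. The share of all genes that stand apart alike was not counted. Ms4a1, which encodes CD20, had 12.90, 13.29, 12.83 and 11.71 in the 4 tumors, at most 10.21 in the other 15 and at most 6.86 in thymi. Cd79a, a chain of the B cell receptor, had 13.87, 13.49, 13.37 and 11.45, at most 10.31 in the other tumors and at most 6.15 in thymi. Both were chosen after their values were seen. Dendritic cell markers were above every thymus in all 4 tumors for 6 of 9 genes, and above every other tumor for 4 of 9. For these markers too the share of all genes was not counted, and the content of dendritic cells was not tested. Double-positive thymocyte markers were lowest in KO tumor 04 (8.32) and KO tumor 06 (8.92). HT tumors 01 and 03 stood at 11.22 and 10.88 for these markers, near the median of 11.22 over all 19 tumors.

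Over the 19 tumors the class II level, the mean over the 6 genes of the log2 value minus the gene's mean over all arrays, ran from -1.87 in KO tumor 01 to 3.87 in KO tumor 04. Its Pearson correlation with the B cell marker mean was 0.95 over 19 tumors, 0.91 without KO tumors 04 and 06, 0.74 over the 15 tumors without the 4 and 0.55 over 12 thymi. In the same sets it was 0.88, 0.81, 0.69 and 0.89 with the dendritic cell mean, 0.60, 0.68, 0.69 and 0.96 with the macrophage mean and -0.10, 0.20, 0.75 and 0.93 with the epithelial mean. The points share their arrays and normalization, and no test is attached. The B cell mean had the highest of these correlations over all tumors, and the macrophage and epithelial means over thymi. What these cells contribute was not tested.

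**Figure D3:**
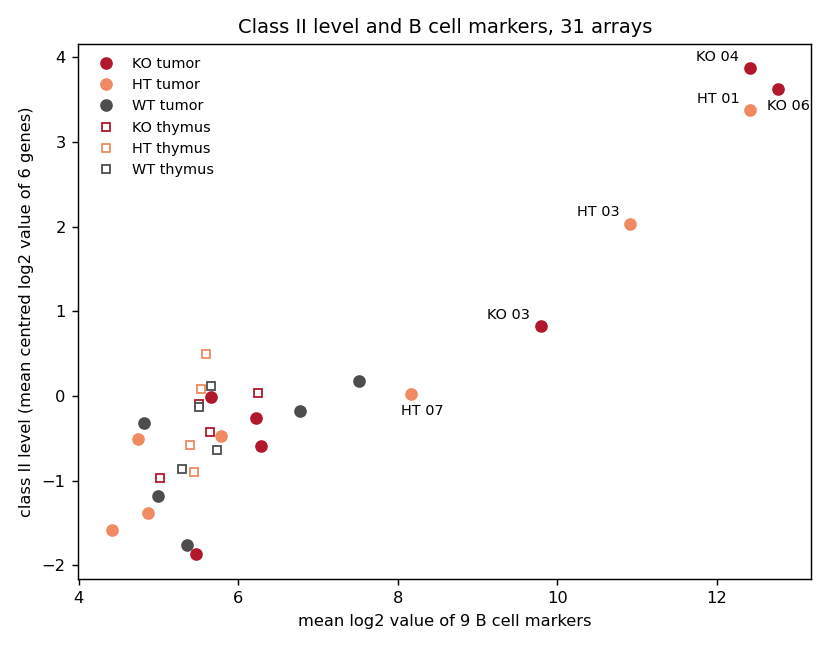
Class II level of each of 31 arrays (vertical, mean centred log2 value of 6 genes) against the mean log2 value of 9 B cell markers (horizontal), tumors as filled dots and thymi as open squares. KO tumors 04 and 06 and HT tumors 01 and 03 stand at 10.91 or more on the horizontal axis and 2.04 or more on the vertical axis, KO tumor 03 lies at 9.80 and 0.83, and the thymi span over 1 unit on the vertical axis with B cell means of 5.02 to 6.25.

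Since the 4 tumors lead in class II itself, leaving them out fixes part of the direction. Without them, 2 of 6 genes were called between tumors and thymi, a share no higher than the 33.4% of all genes called in that fit. Both were lower in tumors: H2-DMa at -1.18 (adjusted p = 0.00638 in limma) and Cd74 at -0.86 (adjusted p = 0.0468). Of all genes 16.9% were called lower, and 2 of 6 genes are too few to set apart from that share. H2-Ab1 was at -0.64 (adjusted p = 0.174), H2-Eb1 at -0.58, H2-Aa at -0.33 and Ciita at 0.51 (adjusted p = 0.110). The other 15 tumors averaged 6.91 ± 0.95 for H2-DMa, against 8.07 ± 0.24 in thymi, and 10.82 ± 0.94 for Cd74, against 11.39 ± 0.65 in thymi. Tumors were mostly female and the thymi evenly male and female, and without the sex term H2-Ab1, H2-Eb1 and Cd74 changed sign to 0.43, 0.45 and 0.14.

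Within genotypes the tumor against thymus comparison called 0 of 6 genes each time. The share of all genes called was 4.76% for KO, 3.5% for HT and 6.56% for WT, or 667, 491 and 920 genes. These counts depended on single thymi: 294 genes were called without KO thymus F_02, 228 without HT thymus F_01 or F_02 and 366 without WT thymus F_02. In KO all 6 genes had positive values, from 0.25 (H2-DMa) to 2.28 (Ciita, SE 0.99, unadjusted p = 0.0292 and adjusted p = 0.195 in limma). In HT they ran from -0.31 (Cd74) to 0.58 (Ciita). In WT 5 of 6 were negative, down to -1.65 for H2-DMa (SE 1.23, adjusted p = 0.464). The difference between genotypes in the tumor effect was called for 0 of 6 genes, KO against WT and HT against WT, with 0% of all genes called in both, and H2-DMa gave 1.90 (SE 1.601) and 1.57 (SE 1.601).

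Among tumors, KO and HT labels went with higher class II means than WT, and no difference passed. H2-Ab1 ran from 8.25 to 14.17 with a median of 10.87 in KO tumors, and from 8.54 to 14.29 with a median of 10.33 in HT tumors. WT tumors 01 to 05 had 10.59, 8.38, 10.63, 9.38 and 10.41. The WT values all lay within the range of the KO tumors, and 4 of 5 within that of the HT tumors. Against WT, H2-Ab1 gave 1.499 for KO (SE 1.07, adjusted p = 0.874) and 1.02 for HT (SE 1.07, adjusted p = 0.936).

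H2-DMa ran from 5.75 to 12.35 with a median of 7.73 in KO tumors and from 5.84 to 12.55 with a median of 7.44 in HT tumors, while WT tumors had 8.10, 5.15, 6.39, 6.14 and 7.27. It gave 2.14 for KO against WT (SE 1.27) and 1.97 for HT against WT (SE 1.27). Ciita ran from 3.65 to 10.74 with a median of 5.01 in KO tumors and from 3.28 to 7.22 with a median of 4.38 in HT tumors, and WT tumors had 4.29, 4.34, 4.33, 4.64 and 4.69. Ciita gave the widest difference, 2.25 for KO against WT (SE 1.09, unadjusted p = 0.0553, adjusted p = 0.874 in limma). The 2 highest KO and the 2 highest HT values of H2-Ab1 and H2-DMa are those of the 4 high tumors.

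KO against WT, HT against WT and KO against HT each called 0 of 6 genes in tumors, with 0% of all genes called. At an unadjusted p under 0.05, 0 of 6 genes passed in each, and 473, 390 and 154 of all 14016 genes. KO and HT tumors share the WT tumors as their comparison. Without the 4 high tumors, none of them WT, the KO against WT values shrank to between 0.07 (H2-Aa) and 0.47 (H2-DMa). Of the HT against WT values 5 of 6 turned negative, down to -0.30 for H2-Ab1. The 4 tumors hold the highest values of every gene but Ciita, so part of this shift was fixed in advance. Without the 4 KO tumors of high Stk38 signal, which include 04 and 06, H2-Ab1 gave 0.16 for KO against WT. All 6 KO against HT values then turned negative, from -1.10 (H2-Aa) to -0.38 (Ciita). Part of that shift too was fixed by leaving out KO tumors 04 and 06.

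**Figure D4:**
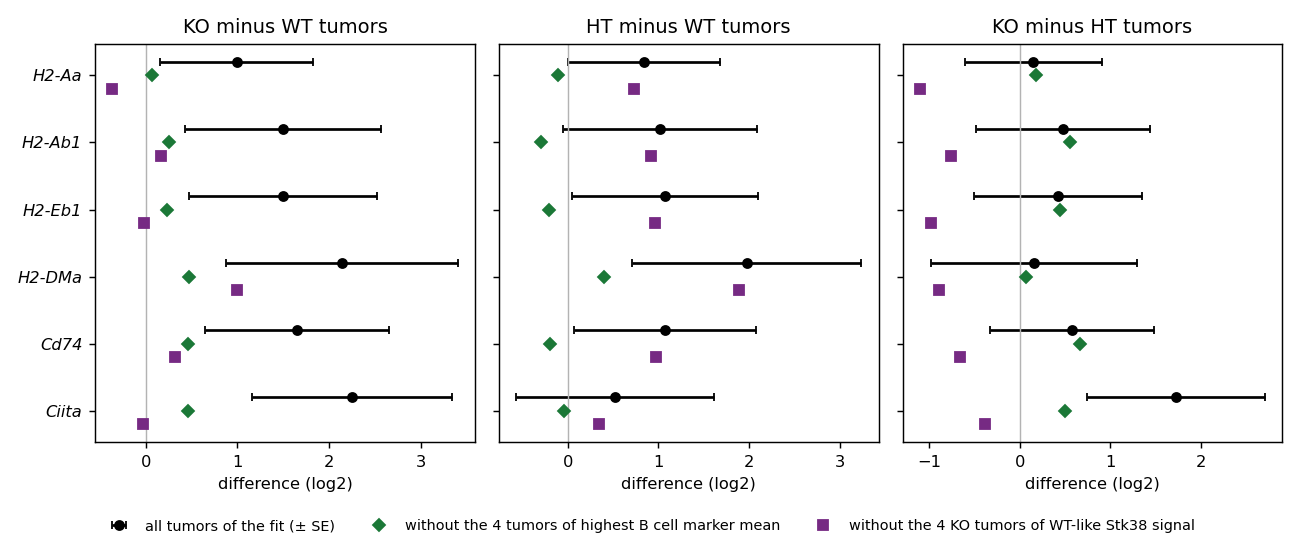
Differences in log2 value between tumor genotypes for the 6 genes, over all tumors (black, ± SE), without the 4 tumors of highest B cell marker mean (green) and without KO tumors 03, 04, 06 and 07 (purple). The black points lie at 0 or above in all 3 panels, between 0.15 and 2.25, and the green points for KO and HT against WT lie near 0, between -0.30 and 0.47. The 4 tumors left out for green hold the highest values of every gene but Ciita, so part of that shift was fixed in advance.

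In thymi no class II gene was called between genotypes. KO against WT called 0 of 6 genes (0.186% of all genes called), with values from -0.06 (H2-Aa) to 0.11 (H2-DMa). HT against WT called 0 of 6 (0.0214% of all genes), the widest being H2-DMa at 0.28 (SE 0.14, adjusted p = 0.733). KO against HT called 0 of 6 (0.0571% of all genes), the widest being H2-Ab1 at -0.27 (SE 0.17, adjusted p = 0.698). No member passed an unadjusted p under 0.05 in these comparisons (limma). H2-Ab1 had 8.99 and 9.78 in the male and 10.77 and 10.71 in the female KO thymi. It had 9.78 and 9.47 in the male and 11.28 and 10.77 in the female HT thymi, and 9.38 and 9.47 in the male and 10.89 and 10.53 in the female WT thymi. The 2 sexes thus stood apart within each genotype and the genotypes overlapped.

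The 6 genes did not all follow one another equally closely. Each gene's Pearson correlation with the mean of the other 5 was 0.99 for H2-Eb1, 0.98 for H2-Ab1, 0.96 for Cd74, 0.94 for H2-DMa, 0.93 for H2-Aa and 0.77 for Ciita over 19 tumors. Over the 15 tumors without the 4 it was 0.97 for H2-Eb1, 0.95 for H2-Ab1, 0.85 for H2-Aa, 0.82 for Cd74, 0.69 for H2-DMa and 0.45 for Ciita. Over 12 thymi it was 0.96 to 0.98 for H2-Aa, H2-Ab1, H2-Eb1 and Cd74, against 0.55 for H2-DMa and 0.46 for Ciita. The I-A and I-E chains and the invariant chain thus stayed close in both tissues, and H2-DMa and the main Ciita probe set had lower correlations in thymi. There H2-DMa had an SD of only 0.24, and Ciita was close to the lower limit of measurement. Either can lower a correlation, and separate regulation was not tested. For Ciita the lower correlation depended on the probe set, since 1421210_at gave 0.78 and 1447075_at 0.72 over the 12 thymi. The other H2-DMa probe set, 1459872_x_at, gave 0.62, with every thymus below the low-signal filter.

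Probe sets of the same gene parted in some tumors, which limits single-tumor values. In HT tumor 07, which had the highest 3' to 5' ratio (4.87), the H2-Aa probe set 1443783_x_at lay 3.27 above the thymus mean and 1452431_s_at lay 1.75 below it. In the same tumor H2-Ab1 was 10.33 on its main probe set and 5.14 on 1451721_a_at. The spread between the 4 H2-Aa probe sets, each taken against its thymus mean, had a median of 2.13 and a Pearson correlation of 0.79 with the 3' to 5' ratio over the 19 tumors, and that of the 3 H2-Ab1 probe sets a median of 0.67 and a correlation of 0.86 (Spearman 0.71 and 0.59). For the 3 Ciita probe sets the median was 1.04 and the correlation 0.49 (Spearman 0.45), and for the 2 H2-DMa probe sets 1.05 and 0.03 (Spearman 0.08). All 4 H2-Aa probe sets were on the same side of the thymus mean in 12 of 19 tumors. In the 4 high tumors all probe sets of H2-Aa and H2-Ab1 were above every thymus. The suffixes _x and _s mark probe sets whose probes can also bind related transcripts.

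**Figure D5:**
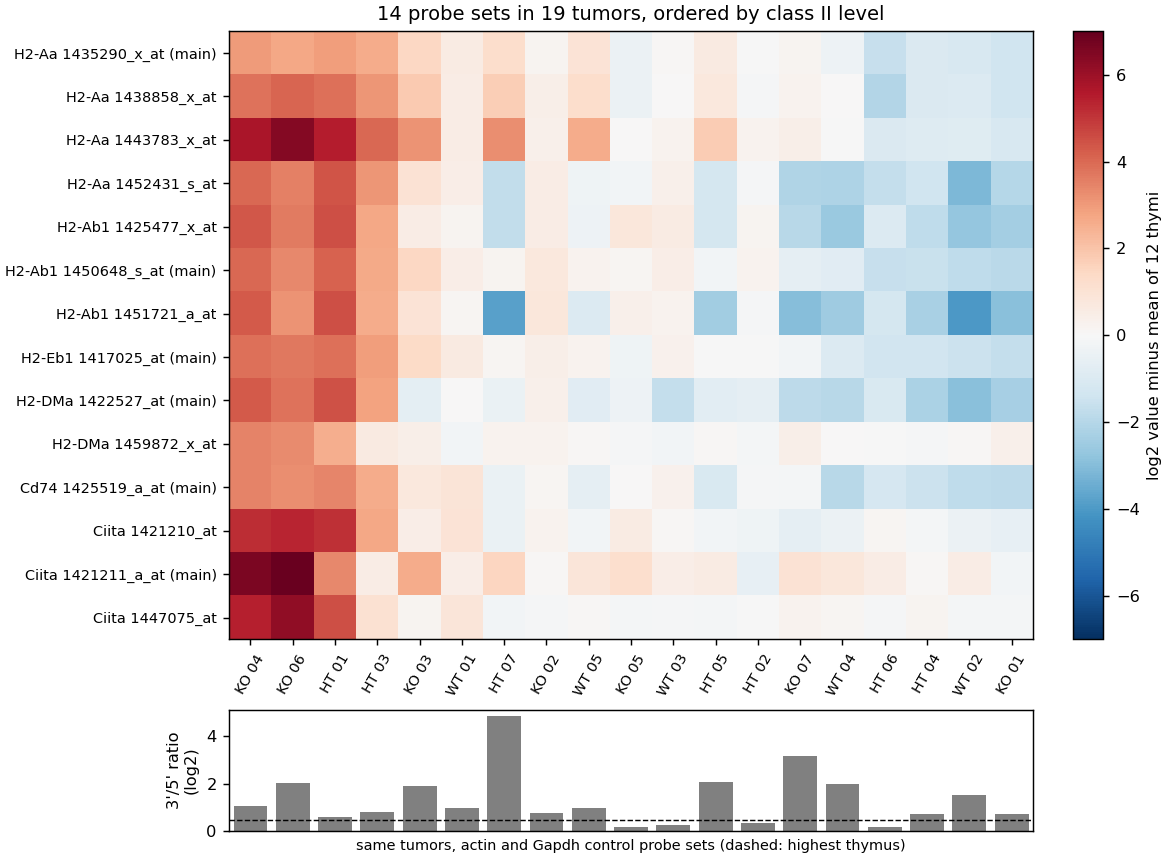
Colours give the log2 value minus the mean of 12 thymi for 14 probe sets (rows) in 19 tumors (columns, ordered by class II level from the highest), with the 3' to 5' log2 ratio of each tumor as bars below and the highest thymus ratio as a dashed line. KO 04, KO 06, HT 01 and HT 03 are red for every H2-Aa, H2-Ab1, H2-Eb1 and Cd74 probe set, whereas HT 07, with a ratio of 4.87, has both red and blue probe sets of H2-Aa.

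The rest of the class II machinery was read from lists. The counts between tumors and thymi stand against the 24.2% of all genes called (11.6% higher, 12.6% lower). Of 5 further chain and chaperone genes measured, 1 was called, a share below that of all genes: H2-Oa, which with H2-Ob restrains DM, rose by 1.20 (SE 0.33, adjusted p = 0.00920). H2-Oa was 11.98, 11.98, 12.49 and 10.98 in KO tumors 04 and 06 and HT tumors 01 and 03, 8.82 to 10.50 in the other tumors and 8.43 to 9.28 in thymi. H2-DMb2 had 12.54, 13.18, 13.04 and 11.53 in the same 4 tumors, at most 10.83 in the others and at most 7.47 in thymi, and was at 0.72 (adjusted p = 0.590). H2-Ob was at 0.24 (adjusted p = 0.886) and H2-Eb2 at 1.08 (adjusted p = 0.196). H2-Ea was at 3.97 to 4.31 in the 4 high tumors, at 3.89 to 6.99 with a median of 4.33 in the other 15 and at 3.80 to 4.48 in thymi. H2-Ob was 12.39 to 14.27 in the 4 tumors and 4.17 to 12.57 in the others, so 1 other tumor reached their range.

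Of 7 promoter factors 1 was called, also a share below the 24.2% of all genes: Rfxank, an RFX subunit, fell by 1.37 in tumors (SE 0.27, adjusted p = 0.000556). It was 7.11 to 8.30 in the 4 high tumors, 5.37 to 7.35 in the other 15 and 7.70 to 8.60 in thymi. Rfx5, the DNA-binding RFX subunit, was at 0.57 (adjusted p = 0.0993), with 10.51 to 11.26 in the 4 high tumors, 8.92 to 10.91 in the other 15, which overlap them, and 9.04 to 9.43 in thymi. Rfxap, Nfya, Nfyb, Nfyc and Creb1 were at -0.06 to -0.47 and not called.

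Of 8 endosomal proteases and reductases, 2 rose and 2 fell. Ifi30, the thiol reductase GILT, rose by 1.24 (adjusted p = 0.0110) and cathepsin Ctsb by 0.46 (adjusted p = 0.0116), while Prss16 fell by 5.68 (adjusted p = 5.45e-11) and Ctsl, the cathepsin that cuts the invariant chain in cortical epithelium, by 3.03 (adjusted p = 4.74e-05). Of 5 turnover and costimulation genes 0 were called, Marchf1, a ligase that removes class II from the surface, being at 1.18 and Cd80 at 0.29. Of 13 class I presentation genes 0 were called, with Calr at 0.26 and H2-D1 at -0.77. Of 10 genes of the interferon gamma axis, an inducer of Ciita, 1 rose (Irf1, 0.78) and 4 fell, among them Socs1 (-3.24), Ifngr1 (-1.49) and Ifngr2 (-1.37).

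Markers of other cells differed between tumors and thymi beside these genes. Of 9 B cell markers 0 were called, with Cd22 at 2.35 (adjusted p = 0.0965) and Blnk at 1.51. Of 9 dendritic cell markers 3 fell (Cd209a by 0.61, Siglech by 0.55 and Ccr7 by 2.19), of 11 macrophage markers 2 rose (C1qb by 1.49 and Cd68 by 0.88) and 1 fell (Cd163 by 0.59), and of 9 epithelial markers 5 fell, those of smallest p being Tbata (by 5.18), Krt8 (by 3.28) and Psmb11 (by 1.80). Of 7 fibroblast markers 4 rose, those of smallest p being Col1a2 (by 4.17), Col3a1 (by 3.17) and Col1a1 (by 1.54). Of 8 double-positive thymocyte markers 7 fell, those of smallest p being Cd8b1 (by 3.36), Cd4 (by 3.59) and Cd8a (by 2.31).

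The genes whose pattern over the 19 tumors was most like the class II level were Lmo2 (Pearson r 0.97, Spearman rho 0.94, r 0.95 without KO tumors 04 and 06), Napsa (0.97, 0.91 and 0.95), Oas1a (0.97, 0.87 and 0.96), Ell2 (0.97, 0.93 and 0.95), Ly86 (0.97, 0.88 and 0.95), St8sia6 (0.97, 0.86 and 0.94), Aida (0.96, 0.88 and 0.94), Cd83 (0.96, 0.91 and 0.94), Myo1e (0.96, 0.87 and 0.93) and Serpinb1a (0.96, 0.90 and 0.95). Cd83 encodes a surface protein of mature dendritic cells and activated B cells, and Ly86 encodes MD-1, a partner of the receptor RP105 on B cells and myeloid cells. Lmo2, a transcriptional cofactor known as a T cell oncogene, ranged from 4.18 to 11.74 over the tumors with a median of 5.46, and Ly86 from 5.28 to 12.91 with a median of 7.98. These genes were ranked out of all genes tested and carry no p-value.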

How the data were processed

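RNA of 12 thymi and 19 tumors was hybridised to Affymetrix mouse expression arrays read from the 3' end of transcripts. The deposited values were normalized intensities made by the authors with GCRMA, per the submitters' processing notes, 1 per probe set and array, with no version given. Each array had a median intensity of 20. The labelling protocol in the labels names a whole-transcript assay, which this 3' array does not use. Of 45101 probe sets, 34957 named a single gene.

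Values were turned to log2(value + 1). Of the probe sets of a gene the 1 of highest mean was taken, and the gene was kept where that mean exceeded the 25th percentile (3.61), which left 14016 of 18193 genes. Fits used limma 3.58.1 in R 4.3.3 (lmFit, eBayes, Benjamini-Hochberg over all genes, threshold 0.05) with group and sex as terms: all 31 arrays for tumor against thymus, 12 thymi or 19 tumors for genotypes, 12 thymi for sex. The tumor against thymus fit took 1 spread per gene and 1 sex term for both tissues, though tumors varied more and only 2 were male. Its SEs, p-values and signs rest on that. The fit was tested on simulated data with 1 spread per gene over all arrays, which could not show the effect of unequal spread.

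Named were the 6 genes, up to 3 called genes per direction and list (or the 2 of smallest p), and the 10 genes most like the class II level. The members and the lists were chosen with earlier results of these data known. Alternatives are given in the closing section; female arrays only, single probe sets and the tumors left out for Stk38 were added after seeing the data.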

Additional observations from a re-analysis of the deposited data

Results flagged for a closer look

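Among 96 sets of values, each 1 probe set or summary level in 1 group of 4 to 7 arrays, 3 held an array far from the others by Dixon's test, which chance alone would do in about 1 of 20 sets. All 3 were secondary probe sets. The H2-DMa probe set 1459872_x_at was 5.91 in HT tumor 01, against 3.99 in the next HT tumor. The Ciita probe set 1447075_at was 8.24 in HT tumor 01, against 4.80 in the next, and 4.597 in WT tumor 01, against 3.87 in the next. HT tumor 01 was also 1 of the 4 tumors of highest class II level on the main probe sets.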

How the results depend on the processing

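The call of H2-Aa, H2-Ab1, H2-Eb1 and Cd74 as lower in male thymi held under every alternative run, and averaging all probe sets added Ciita. The count of class II genes called between tumors and thymi was 0, and 2 without the 4 tumors of highest B cell marker mean, a set that also leads in class II; in that fit 33.4% of all genes were called. Every other alternative run left that count at 0. The signs that turned belong to differences that were not called. Without the sex term the sign turned for H2-Ab1 0.43, H2-Eb1 0.45 and Cd74 0.14 (tumor against thymus), H2-Ab1 0.37, H2-DMa 0.15 and Cd74 0.13 (HT tumor against HT thymus), H2-Aa 0.030 (WT tumor against WT thymus). With the 3' to 5' ratio as a covariate the sign turned for H2-Aa -0.10, H2-Ab1 0.025 and H2-Eb1 0.034 (tumor against thymus), H2-Ab1 0.047 and H2-DMa 0.18 (HT tumor against HT thymus), H2-Ab1 0.0057 (KO against WT thymus), Ciita 0.10 (HT against WT thymus), Ciita -0.065 (KO against HT thymus). Without the 4 tumors of highest B cell marker mean the sign turned for H2-Aa -0.33 (tumor against thymus), H2-Aa -0.16, H2-Ab1 -0.23, H2-Eb1 -0.26, H2-DMa -0.97 and Cd74 -0.42 (KO tumor against KO thymus), H2-Aa -0.47 and H2-Eb1 -0.84 (HT tumor against HT thymus), H2-Aa -0.12, H2-Ab1 -0.40, H2-Eb1 -0.20, Cd74 -0.27 and Ciita -0.10 (tumor effect HT against WT), H2-Aa -0.11, H2-Ab1 -0.30, H2-Eb1 -0.21, Cd74 -0.20 and Ciita -0.043 (HT against WT tumor). On female arrays only the sign turned for H2-Eb1 0.041 (tumor against thymus), H2-Ab1 0.022 and H2-DMa 0.33 (HT tumor against HT thymus), H2-Ab1 0.026 and Ciita -0.059 (KO against WT thymus), Ciita 0.16 (HT against WT thymus), Ciita -0.22 (KO against HT thymus), H2-Aa -0.023 and H2-DMa -0.24 (KO against HT tumor). Without the 4 KO tumors of high Stk38 signal the sign turned for H2-Aa -0.24 (tumor against thymus), H2-Aa -0.63, H2-Ab1 -0.44, H2-Eb1 -0.62, H2-DMa -0.81 and Cd74 -0.68 (KO tumor against KO thymus), H2-Aa -0.24 and Ciita -0.16 (tumor effect KO against WT), H2-Aa -0.36, H2-Eb1 -0.021 and Ciita -0.034 (KO against WT tumor), H2-Aa -1.10, H2-Ab1 -0.76, H2-Eb1 -0.98, H2-DMa -0.89, Cd74 -0.65 and Ciita -0.38 (KO against HT tumor). With all probe sets of a gene averaged the sign turned for H2-DMa 0.091 (HT tumor against HT thymus), Ciita -0.21 (WT tumor against WT thymus), H2-Ab1 0.014 and Ciita -0.092 (KO against WT thymus), Ciita -0.061 (KO against HT thymus). After quantile normalization the sign turned for H2-Ab1 0.0061 (KO against WT thymus). Among all genes, 3390 were called between tumors and thymi and 1469 on female arrays only. Within KO, HT and WT the counts were 667, 491 and 920, on female arrays only 90, 141 and 126, and without the 4 tumors 1611, 1369 and 1642. Without the 4 KO tumors of high Stk38 signal they were 794 in HT and 1588 in WT. Between thymus genotypes, KO against WT called 26 genes (16 without the sex term, 8 on female arrays), HT against WT 3 (1 and 1) and KO against HT 8 (3 and 1, 15 with a trended robust prior, and 5 with probe sets averaged or the 3' to 5' ratio as a covariate). Leaving out 1 array at a time, the counts within KO, HT and WT ranged from 294 to 908, 228 to 571 and 366 to 1190. They moved by over 1.5 times without each of the 4 KO thymi (294 to 428), without HT thymi F_01, F_02 and M_02 (228 to 294), and without each of the 4 WT thymi or WT tumor 04 (366 to 600). The thymus genotype counts ranged from 13 to 23 (KO against WT), 1 to 3 (HT against WT) and 2 to 7 (KO against HT). Without KO tumor 07, 1 gene was called between KO and WT tumors and 1 between KO and HT tumors. Leaving out each array in turn changed no count of called class II genes, and the sign turned in these ranges. For tumor against thymus, H2-Eb1 -0.18 to 0.10, H2-Ab1 -0.27 to 0.039 and H2-Aa -0.032 to 0.18. For KO tumor against KO thymus, H2-DMa -0.33 to 0.69. For HT tumor against HT thymus, H2-Eb1 -0.40 to 0.40, H2-Aa -0.12 to 0.58, H2-DMa -0.72 to 0.49 and H2-Ab1 -0.65 to 0.24. For tumor effect HT against WT, Ciita -0.032 to 0.65. For KO against WT thymus, H2-Ab1 -0.15 to 0.14, H2-Eb1 -0.24 to 0.11, Ciita -0.11 to 0.12, H2-DMa -0.0090 to 0.20, Cd74 -0.14 to 0.23 and H2-Aa -0.29 to 0.077. For HT against WT thymus, Ciita -0.10 to 0.10, H2-Aa -0.073 to 0.17 and H2-Eb1 -0.045 to 0.24. For KO against HT thymus, H2-Aa -0.37 to 0.015, H2-Eb1 -0.35 to 0.018, Ciita -0.090 to 0.11 and Cd74 -0.34 to 0.035. For KO against HT tumor, H2-Aa -0.26 to 0.56, H2-DMa -0.45 to 0.83 and H2-Eb1 -0.016 to 0.93. With a replicate block, 0 class II genes were called in each genotype comparison, H2-Ab1 gave 1.81 for KO against WT tumors, and 1 gene of all was called there. Deviations of same-numbered arrays correlated over 0.1 in 10 of 12 thymus pairs (-0.059 to 0.20) and in 3 of 13 tumor pairs (-0.58 to 0.44), so not in every pair, and the numbers were not taken as pairing the samples. The cause of these changes was not tested.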
